A study of Mus musculus with 2 samples.

Results

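The 10 genes described here are the epithelial alarmins *Tslp*, *Il33* and *Il25*, the type 2 cytokines *Il4*, *Il5* and *Il13*, and the receptor genes *Il4ra*, *Il13ra1*, *Il13ra2* and *Il1rl1*. They were taken by gene name from the probes other than controls of both arrays, which gave 13 probes on 22 spots for 10 of the 30193 genes on the array. The rule used gene names alone. The arrays compared the skin of *Pnpla1*-/- mice, which lack a lipase-family enzyme needed to make the acylceramides of the skin barrier, with that of *Pnpla1*+/+ littermates. Both groups were newborn C57BL/6N mice at postnatal day 0. The *Pnpla1*-/- mice carried a KOMP knockout-first (tm1a) allele from which the IRES-LacZ and Neo cassettes had been removed by flippase, and the deletion was global rather than restricted to the epidermis.

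RNA from 6 animals was pooled for each genotype and hybridised to 1 one-colour array, so each value below is that of 1 pool. The deposited description names both skin and epidermis as the tissue. No test between genotypes was possible, and a difference or a 2-fold count describes these 2 pools, without a measure of the variation between mice. In RNA from a whole tissue, a change in the number of cells that express a gene and a change in RNA per cell cannot be told apart. The pools also differed in sex-linked transcripts, with log2 differences of 1.12 for *Xist* and -2.19 for the Y-linked *Ddx3y* and *Eif2s3y*. The part of this in the values below was not tested. The targeted gene *Pnpla1* had an intensity of 579 in the *Pnpla1*+/+ pool and 114 in the *Pnpla1*-/- pool, a scaled log2 difference of -2.07.

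TSLP, IL-33 and IL-25 are cytokines that barrier epithelia make or release when they are damaged, and they act on dendritic cells, innate lymphoid cells, mast cells, basophils and T helper cells. Among these, innate lymphoid cells, T helper cells, mast cells and basophils are sources of IL-4, IL-5 or IL-13, the cytokines of allergic inflammation, IgE production and eosinophil growth. IL-4 and IL-13 signal through IL-4Rα to STAT6, and IL-33 signals through ST2, the product of *Il1rl1*, to MyD88.

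The array reads a transcript through a 60-base oligonucleotide. The first 30 bases of some of the probes described below are shown as deposited, 5′ to 3′, with their places on mouse build mm9. They are the probes of *Il33* and *Il13*, each of which is the only probe of its gene, the pair that reads *Il4ra* and the 3 that read *Il1rl1*, whose probes gave unequal values. No capitals are used in these lines.
Il33 probe, chr19:30035101-30035160: gtgaatctgtacgatatctttaaagtagta
Il13 probe, chr11:53444828-53444887: tcactgaacaaacttttcattgactgtcaa
Il4ra probe, chr7:132722922-132722981: acctgttgggaattccaaccctcaccagtc
Il4ra probe, chr7:132712550-132712609: atcccgaggaacagtgccagcactgtgtgt
Il1rl1 variant 2 probe, chr1:40504769-40504828: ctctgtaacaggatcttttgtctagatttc
Il1rl1 variant 1 probe, chr1:40520014-40520073: ccttacccaaattgccattacagtcgagca
Il1rl1 variant 1 probe, chr1:40522187-40522246: gccattgactccttgtgtgttttcttcatg
Whether these stretches lie in coding exons or untranslated parts of the transcripts was not determined here, because no annotation of that build was used.

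Of the 10 genes, 8 were well above background on both arrays, and *Il25* and *Il5* were not well above background on either. All 8 measured genes had a higher scaled value in the *Pnpla1*-/- pool, after each intensity was divided by the 75th percentile of its array, 2108 for *Pnpla1*+/+ and 1734 for *Pnpla1*-/-. That direction depended on the scaling for *Il1rl1*, at -0.18 without scaling. When the arrays were centred on the E1A spike-in probes, *Il1rl1* was at -0.33 and *Il4* at -0.00. Of the 8 genes scaled by the 75th percentile, 5 were at least 2-fold higher, 0 were at least 2-fold lower and 3 lay within 2-fold. Across all 22409 genes with a difference or a bound, 6.69% were higher by 2-fold or more and 3.04% were lower by as much. The median log2 difference of the 8 measured genes was 1.28, beside -0.01 for all genes measured on both arrays. These 8 genes are those that passed the background filter, so their count and median do not speak for *Il25* and *Il5*.

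**Figure D1:**
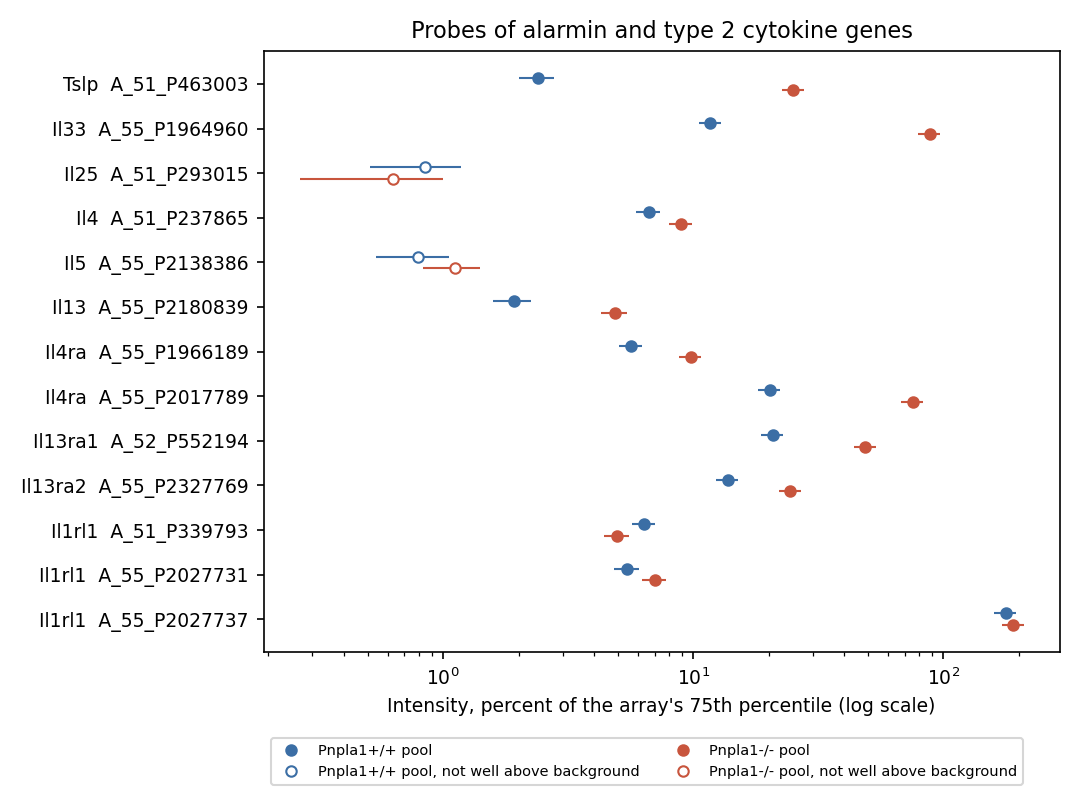
Intensity of each of the 13 probes as a percentage of its array's 75th percentile (log axis), in the *Pnpla1*+/+ pool (blue) and the *Pnpla1*-/- pool (red), with open symbols for probes not well above background and bars for the error that the scanner software assigned to the spot. *Tslp* and *Il33* show the widest gaps between pools, and the *Il25* and *Il5* probes lie near 1% on both arrays.

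Among the alarmins, *Tslp* had the widest gap of the 8 measured genes under the main setting. Its single probe (chr18:32978885-32978944, mm9) read 50.6 in the *Pnpla1*+/+ pool and 435 in the *Pnpla1*-/- pool. That is a log2 difference of 3.39, or 10.5-fold, with an error of 0.27 propagated from the scanner software's spot errors. The *Pnpla1*+/+ reading lay close to the lowest signal called well above background on that array, 23.9, so the fold rested on a dim spot. With another background correction (normexp on the mean and local background signals) the difference was 2.29, below that of *Il33* but still at least 2-fold. Of the 20708 genes measured on both arrays, 107 (0.517%) had a larger difference.

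*Il33*, which encodes a nuclear cytokine of the IL-1 family, read 247 in the *Pnpla1*+/+ pool and 1530 in the *Pnpla1*-/- pool. The log2 difference was 2.92 (7.54-fold, software error 0.21), and 156 genes (0.753%) had a larger one. In contrast to *Tslp*, both readings were far above background, and the difference stayed between 2.49 and 3.01 under the 11 other processing settings tried.

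*Il25*, the IL-17 family alarmin, read 17.8 and 11.0 in the *Pnpla1*+/+ and *Pnpla1*-/- pools. Neither value was well above background, and no fold is given (probe at chr14:55554319-55554378, mm9). The *Il25* level could thus not be measured in either pool, whereas both other alarmins could.

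Mouse RefSeq (GRCm38.p6) promoter windows, which run from 250 bases before to 50 bases after a transcription start, were matched by symbol to 8 of the 10 genes, with 11 windows in all. *Tslp* and *Il25* had none in the table. Each window was searched on both strands for TTCNNNNGAA, the palindromic spacing bound by STAT6, for the STAT spacing TTCNNNGAA, and for TGANTCA, an AP-1 motif. TTCNNNNGAA occurred in 1 of the *Il33* windows, at position -36 from the start site, and in 1 of the *Il4* windows, at position -167. It occurred in 6.95% of all 32851 promoter windows of the table. TTCNNNGAA was found in the other *Il4* window, at position -4 (8.30% of all windows), and TGANTCA in the *Il13ra2* window, at position -193 (7.81%). No match overlapped another. The 250 bases before the *Il33* start are shown because *Il33* had the best-measured wide difference, with the TTCNNNNGAA match in capitals (GRCm38.p6, plus strand).
Il33 upstream, chr19:29924863-29925112: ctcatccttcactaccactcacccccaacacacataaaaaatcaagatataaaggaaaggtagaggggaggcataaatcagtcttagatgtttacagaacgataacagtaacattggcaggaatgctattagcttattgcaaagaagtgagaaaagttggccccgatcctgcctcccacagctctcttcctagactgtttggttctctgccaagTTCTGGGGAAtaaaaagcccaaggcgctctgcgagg
A match of letters is a description of the sequence. Binding was not measured in these samples.

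Among the type 2 cytokines, *Il13* was higher in the *Pnpla1*-/- pool. Its probe, shown above, gave intensities of 40.4 for *Pnpla1*+/+ and 84.0 for *Pnpla1*-/-, a log2 difference of 1.34 (2.53-fold, software error 0.30). Larger differences were seen for 722 genes (3.49%). The signal was dim on both arrays, and under 2 of 11 other settings the difference dropped below 2-fold, to 0.91 when the arrays were centred on the E1A spike-in probes and to 0.75 with normexp background correction.

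*Il4*, the cytokine that drives T helper 2 differentiation and the switch to IgE, was the only one of the 10 genes printed as repeated spots. Its probe (chr11:53426076-53426135, mm9) stood on 10 spots of each array, of which 1 carried an outlier flag on the *Pnpla1*-/- array and was left out on both. Over the other 9 spots, intensities had a lowest value of 131, a median of 137 and a highest value of 155 in the *Pnpla1*+/+ pool. In the *Pnpla1*-/- pool the lowest was 138, the median 154 and the highest 190. The raw ranges of the pools thus overlapped. After scaling, each of the 9 spots was higher in the *Pnpla1*-/- pool, by between 0.31 and 0.58 on the log2 scale, with a mean of 0.42 (SD over spots 0.09). The spots are repeats of 1 hybridisation and measure technical error alone. The difference was 1.34-fold, 3416 genes (16.5%) had a larger one, and with centring on the spike-in probes it was nil (-0.00).

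*Il5*, the eosinophil growth and survival factor, read 16.7 in the *Pnpla1*+/+ pool and 19.4 in the *Pnpla1*-/- pool. Neither reading was well above background, so no level or fold was available (chr11:53538468-53538527, mm9).

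Among the receptors, *Il4ra* had the widest difference. It encodes the IL-4Rα chain shared by the receptors for IL-4 and IL-13. Its brighter probe, at chr7:132722922-132722981, read 426 in the *Pnpla1*+/+ pool and 1304 in the *Pnpla1*-/- pool, a log2 difference of 1.90 (3.73-fold, software error 0.20). The other probe of the same transcript, at chr7:132712550-132712609, read 119 and 169, a difference of 0.79 (1.73-fold, software error 0.22). Both probes were higher in the *Pnpla1*-/- pool but by unequal amounts. The gap between them, 1.1, was larger than the range between probes in 96.7% of 5096 genes with several measured probes. Averaging both probes gave 1.35, still at least 2-fold.

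*Il13ra1*, which pairs with IL-4Rα in the receptor used by non-haematopoietic cells, read 439 in the *Pnpla1*+/+ pool and 843 in the *Pnpla1*-/- pool (chrX:33710154-33710213, mm9). The log2 difference was 1.22 (2.34-fold, software error 0.20). It was 0.94 without scaling and 0.80 with spike-in centring, which is under 2-fold in both cases. *Il13ra2*, a high-affinity decoy for IL-13, read 289 and 424 (chrX:143818095-143818154, mm9), a difference of 0.83 (1.78-fold, software error 0.21). It was above 0 under all 11 other settings and at least 2-fold under none.

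Both IL-13 receptor genes lie on the X chromosome, and the pools differed in sex-linked transcripts. *Xist*, transcribed from the inactive X of females, read 853 in the *Pnpla1*+/+ pool and 1528 in the *Pnpla1*-/- pool, a difference of 1.12. The Y-linked *Ddx3y* and *Eif2s3y* each had a difference of -2.19. *Kdm5d*, the other Y-linked gene examined, was well above background in the *Pnpla1*+/+ pool alone, at 26.5. The part of these sex-linked differences in the values of *Il13ra1*, *Il13ra2* and the other genes described here was not tested.

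*Il1rl1* had probes on both sides of 0, unlike *Il4ra*, the other receptor gene described above with several probes. The gene makes a membrane receptor for IL-33 and a shorter, soluble form that binds IL-33 as a decoy, and the array's probes were annotated to its transcript variants 1 and 2. The brightest probe, of variant 1 (chr1:40522187-40522246), read 3738 in the *Pnpla1*+/+ pool and 3295 in the *Pnpla1*-/- pool. Its scaled difference was 0.10 (1.07-fold, software error 0.20), and it became -0.18 without scaling and -0.33 with spike-in centring. The other variant 1 probe (chr1:40520014-40520073) read 115 and 122, a difference of 0.37. The variant 2 probe (chr1:40504769-40504828) read 134 and 85.9, a difference of -0.36. All 3 were within 2-fold. Their range, 0.73, exceeded that of 92.0% of the genes with several measured probes, and each software error was 0.20 to 0.23.

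**Figure D2:**
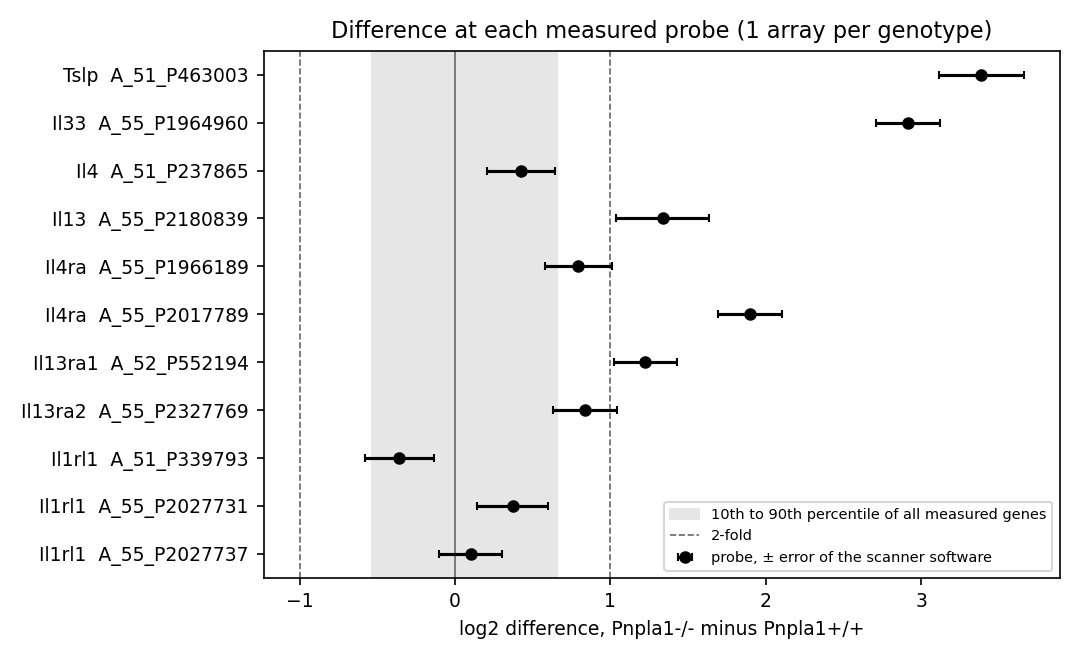
Scaled log2 difference (*Pnpla1*-/- minus *Pnpla1*+/+) at each of the 11 probes well above background on both arrays, with bars for the error propagated from the scanner software. The grey band is the 10th to 90th percentile of genes measured on both arrays, -0.53 to 0.66, and dashed lines mark 2-fold. *Tslp*, *Il33*, *Il13*, *Il13ra1* and the brighter *Il4ra* probe lie beyond 2-fold, and the 3 *Il1rl1* probes lie on both sides of 0.

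Under the main setting the differences of the 8 measured genes ran in the order *Tslp*, *Il33*, *Il4ra*, *Il13*, *Il13ra1*, *Il13ra2*, *Il4* and *Il1rl1*. With normexp correction *Il33* (2.63) stood above *Tslp* (2.29), and *Il13ra1* (1.14) above *Il13* (0.75), and the latter pair also swapped with quantile normalization and cyclic loess. The widest step under the main setting, 1.02 between *Il33* and *Il4ra*, stood beside a propagated software error of 0.29. *Tslp* and *Il33* were 0.47 apart (error 0.34). The 0.11 between *Il13* and *Il13ra1* was the only step smaller than its error, 0.36, and *Il4* and *Il1rl1* were 0.32 apart with an error of 0.30. The error covers the reading of the spots and not the mice.

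**Figure D3:**
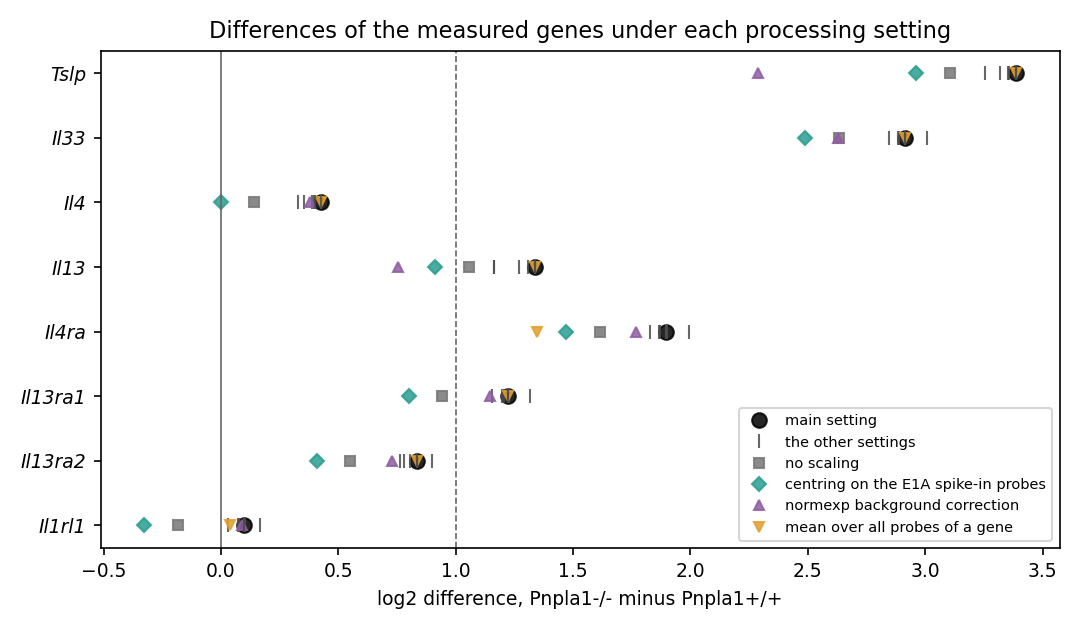
Scaled log2 difference of each measured gene under the main setting (black) and under the 11 alternatives of scaling, background correction, probe rule, flagged spots and naming, with a dashed line at 2-fold. *Tslp*, *Il33* and *Il4ra* stay beyond 2-fold throughout, while *Il1rl1* reaches values below 0.

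The remaining components of the pathway were taken from 6 lists of 75 genes. Of these genes, 68 had a difference or a bound, 16 of them (23.5%) higher by 2-fold or more in the *Pnpla1*-/- pool and 1 (1.47%) lower by as much, beside 6.69% and 3.04% of all genes. The counts were 12 higher and 3 lower without scaling, where 4.46% of all genes were higher and 6.37% lower. With spike-in centring they were 10 higher and 4 lower, beside 3.73% and 9.68% of all genes. These shares of all genes also hold for the counts of each list below under the same settings.

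The 8 partner chains of the alarmin and cytokine receptors were all measured on both arrays, with a median difference of 0.47. By 2-fold or more, 2 were higher and 0 lower, beside 6.69% and 3.04% of all genes. With spike-in centring 1 was higher and 1 lower, and the median was 0.05. *Csf2rb*, the beta chain shared by the IL-3, IL-5 and GM-CSF receptors, read 2939 in the *Pnpla1*+/+ pool and 7854 in the *Pnpla1*-/- pool, a difference of 1.70. *Il2rg*, the common gamma chain that pairs with IL-4Rα on blood cells, read 444 and 932, a difference of 1.35. *Il2rg* fell short of 2-fold with spike-in centring, at 0.93. The part of the sex-linked differences given above in this value was not tested either.

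The receptor pair for TSLP gave smaller differences, 0.35 for *Crlf2* (5098 and 5343) and 0.85 for *Il7r* (131 and 193). The IL-33 co-receptor gene *Il1rap* differed by 0.56 (260 and 314) at its brightest probe, and its 3 measured probes ran from -0.00 to 0.56. The IL-5 receptor gene *Il5ra* differed by 0.17 (141 and 131). Of the IL-25 receptor chains, *Il17ra* differed by 0.39 (418 and 451) and *Il17rb*, at -0.72 (270 and 135), was the single chain lower in the *Pnpla1*-/- pool, and at -1.14 the one that passed 2-fold with spike-in centring. *Crlf2*, *Il17ra* and *Il5ra* took values below 0 with spike-in centring.

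Of the 14 genes for JAK-STAT and MyD88 signalling, 2 were at least 2-fold higher and 0 lower, with a median of 0.40. The shares of all genes were 6.69% and 3.04%. *Jak3*, the kinase bound to the common gamma chain, differed by 1.12 (206 and 369), and *Myd88*, the adaptor below ST2, by 1.06 (2807 and 4808). Both dropped below 2-fold without scaling and with spike-in centring, *Jak3* also with normexp correction (0.97) and *Myd88* also with scaling by the median (0.99). *Irak4* and *Jak2* differed by 0.70 and 0.53. The other probe of *Jak3* gave 0.92, under 2-fold, and that of *Irak4* gave 1.01, past 2-fold. Beside 6.69% of all genes, 1 of the 6 feedback regulators was at least 2-fold higher. This was *Socs3*, an inhibitor of cytokine receptor signalling, which differed by 1.37 (6285 and 13362), beside 0.72 for *Socs1*, 0.62 for *Ptpn6* and 0.47 for *Cish*. With spike-in centring *Socs3* fell below 2-fold, at 0.94.

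The IL-4 and IL-13 response genes were mixed. Of 17 with a value, 4 were at least 2-fold higher and 1 lower, beside 6.69% and 3.04% of all genes. The median of those measured on both arrays was 0.33. Without scaling and with spike-in centring, 3 were higher and 2 lower, with medians of 0.04 and -0.10. *Chil3*, a chitinase-like protein, read 308 in the *Pnpla1*+/+ pool and 1209 in the *Pnpla1*-/- pool, a difference of 2.25 (4.77-fold). *Ccl17*, a chemokine for T helper 2 cells, differed by 1.64 (26.7 and 68.5). Its *Pnpla1*+/+ reading lay close to the background limit of 23.9, and with normexp correction the difference was 0.81, under 2-fold.

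*Retnlb*, a resistin-like secreted protein, was well above background in the *Pnpla1*-/- pool alone (95.9 beside 7.81) and was at least 4.87-fold higher, a log2 bound of 2.28 that became 1.01 with normexp correction. The eotaxin genes differed in opposite directions, *Ccl24* by -1.52 (704 and 202) and *Ccl11*, picked out after its values were seen, by 1.14 (270 and 491). *Ccl11* was under 2-fold without scaling (0.86) and with spike-in centring (0.72). Of the members within 2-fold, likewise named after their values were seen, *Mrc1* differed by 0.88 and *Muc5ac* by -0.78, while *Retnla* (-0.15) and *Postn* (-0.17) lay nearer to 0. *Muc5ac* passed 2-fold without scaling (-1.06) and with spike-in centring (-1.21). The part of other pathways in these genes, several of which also respond to other cytokines, was not tested.

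Among the other type 2 and itch-related cytokine and receptor genes, 7 of 12 had a value. Of the 7, 3 were at least 2-fold higher, beside 6.69% of all genes. *Csf2*, which encodes GM-CSF, was well above background in the *Pnpla1*-/- pool alone (215 beside 5.90) and was at least 10.9-fold higher. *Il6* differed by 2.76 (61.6 and 342). With normexp correction the *Csf2* value, a log2 bound of 3.45, was 1.90 and that of *Il6* was 1.94, both still at least 2-fold. The oncostatin M receptor gene *Osmr* differed by 2.04 (1862 and 6283), or 1.97 with normexp correction. *Osm* itself differed by 0.95 (71.2 and 113). The cytokine genes *Il9*, *Il31*, *Il3*, *Il2* and *Il21* were not well above background on either array.

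The 16 genes for alarmin release and induction all had a value. Of these, 4 were at least 2-fold higher and 0 lower, beside 6.69% and 3.04% of all genes. The median of those measured on both arrays was 0.15. The counts were 3 higher and 1 lower without scaling and with spike-in centring, and the medians -0.13 and -0.28. *Nod2*, an intracellular sensor of bacterial peptidoglycan, differed by 3.59 (165 and 1640) and the NADPH oxidase gene *Duox1* by 1.90 (207 and 635). *Trpv3*, a keratinocyte ion channel, was at least 3.93-fold higher (26.1, not well above background, and 84.3), a log2 bound of 1.98 that fell under 2-fold with normexp correction (0.94). *Klk7*, a serine protease of the cornified layer, differed by 1.05 (9995 and 17071), and was under 2-fold without scaling (0.77), with spike-in centring (0.63), with quantile normalization (0.98) and with scaling by the median (0.98).

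**Figure D4:**
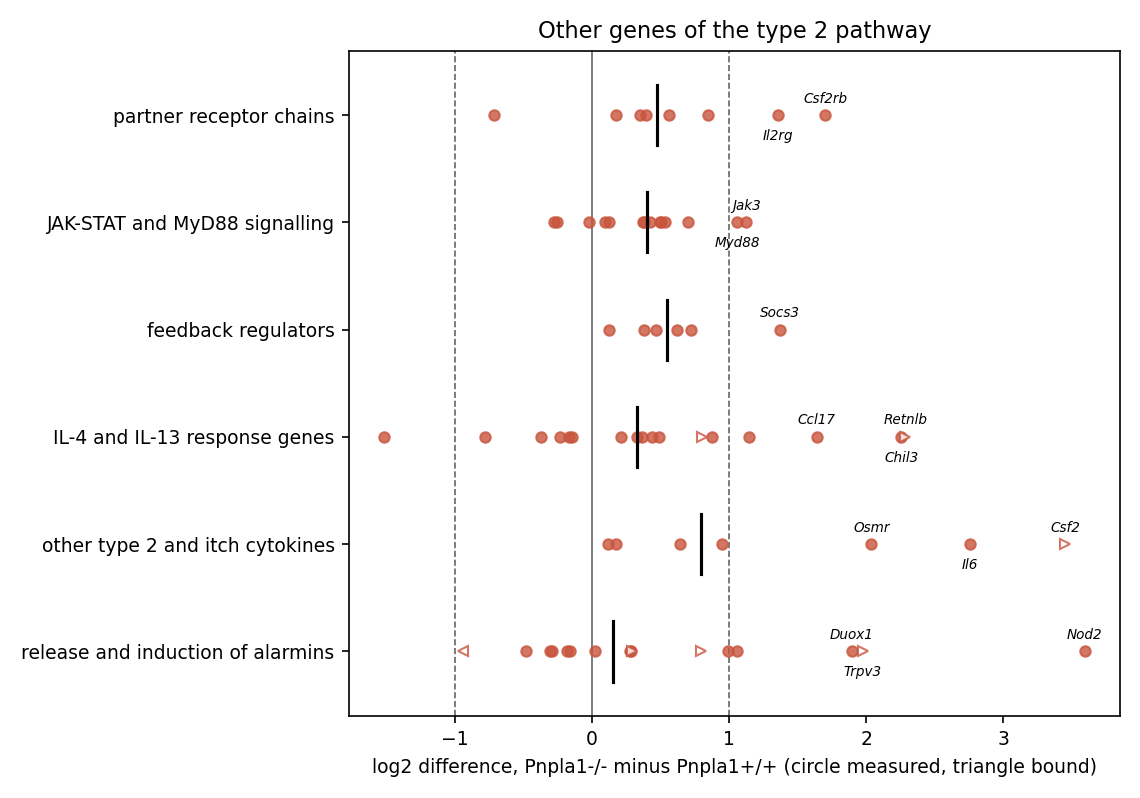
Scaled log2 differences (*Pnpla1*-/- minus *Pnpla1*+/+) of the genes of the 6 pathway lists, with circles for genes measured on both arrays, open triangles for bounds, bars for the median of the circles and dashed lines at 2-fold. Of the 68 genes shown, 16 lie at or beyond 2-fold on the higher side and 1, *Ccl24*, on the lower side.

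*Il4*, *Il5* and *Il13* lie in 1 cluster on chromosome 11, and *Il1rl1* lies among other IL-1 receptor family genes on chromosome 1, so their neighbours were examined too. Among 13 cytokine cluster neighbours with a value, 2 were at least 2-fold higher and 2 lower, beside 6.69% and 3.04% of all genes. The median of the 12 measured on both arrays was -0.17. Without scaling and with spike-in centring the medians were -0.45 and -0.60. Under both of these settings 3 neighbours were lower, beside 6.37% and 9.68% of all genes. *Pdlim4* (-0.87 under the main setting) then passed 2-fold, at -1.15 and -1.30. *Csf2* (given above) and *Irf1*, an interferon-induced transcription factor gene (2100 and 7013, a difference of 2.02), were higher. *Acsl6* (219 and 36.1, -2.32, or -1.03 with normexp correction) and *Slc22a4* (2602 and 569, -1.91) were lower. *Rad50*, which lies between *Il5* and *Il13* and was named for its place, differed by -0.09.

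Of the 7 neighbours of *Il1rl1* with a value, 4 were at least 2-fold higher and 0 lower, beside 6.69% and 3.04% of all genes. The median of the 6 measured on both arrays was 0.81. The IL-1 decoy receptor gene *Il1r2* read 1052 in the *Pnpla1*+/+ pool and 2796 in the *Pnpla1*-/- pool, a difference of 1.69. *Il18r1* differed by 1.12 (95.6 and 171), *Il1rl2* by 1.07 (56.9 and 98.3) and *Il18rap* was at least 4.0-fold higher (20.7, not well above background, and 78.8). The remaining neighbours, named for completeness, were *Il1r1* (0.54), *Slc9a2* (-0.44) and *Mfsd9* (-0.31). The count of 4 became 3 with quantile normalization and cyclic loess, 2 without scaling and with spike-in centring, and 1 with normexp correction.

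Markers of the cell types that make or receive these cytokines were examined in the same pools. Among all genes, 6.69% were at least 2-fold higher and 3.04% lower, the shares to set beside the counts of these lists. The tissue of the sample labels, skin, was borne out by keratinocyte, fibroblast and endothelial genes. Each of these lists had all 8 of its genes well above background on both arrays. The summed scaled level of 8 keratinocyte markers, the brightest of them *Krt10*, was 515 for *Pnpla1*+/+ and 600 for *Pnpla1*-/-, in multiples of the 75th percentile. Within that list *Dsg3* (1.82) and *Krt14* (1.35) were at least 2-fold higher, *Krt15* (-1.67) was lower and *Perp* differed by 0.37. The median was 0.21, and was -0.07 without scaling and -0.22 with spike-in centring.

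The 8 fibroblast markers, led by *Col1a2*, summed to 349 and 328, with 1 gene, *Twist2* (-1.05), beyond 2-fold. The others with the widest differences were *Pdgfra* (0.32), *Pdgfrb* (0.27) and *Lum* (-0.27). The 8 endothelial markers, led by *Egfl7*, summed to 22.1 and 26.7, with none beyond 2-fold and *Tie1* (0.51), *Cdh5* (0.39), *Esam* (0.36) and *Kdr* (0.31) the farthest from 0.

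Of 16 T cell and innate lymphoid markers, 11 had a value, and 2 were at least 2-fold higher, beside 6.69% of all genes. The 2 were *Il2ra* (35.5 and 111, a difference of 1.93, or 1.03 with normexp correction) and *Ptprc* (232 and 542, a difference of 1.51). The next widest were *Cd8a*, at least 1.67-fold higher (a log2 bound of 0.74, or 0.42 with normexp correction), and *Icos* at 0.68. *Ptprc* marks all white blood cells. The T cell receptor complex genes *Cd3d* (-0.46), *Cd3e* (0.13), *Cd3g* (-0.40) and *Cd247* (-0.50), given because they define T cells, were all within 2-fold, with *Cd3e* alone above 0. *Klrg1*, *Ptgdr2*, *Trat1* and *Tcrg-V5* were not well above background on either array. The median of the measured markers was 0.17, and was -0.11 without scaling and -0.25 with spike-in centring. The summed level was 13 for *Pnpla1*+/+ and 10.6 for *Pnpla1*-/-, most of it from *Thy1* (-0.46), which fibroblasts also express, and without *Thy1* it was 2.05 and 2.70.

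Of the 10 mast cell and basophil markers, 2 were at least 2-fold higher and 1 lower, beside 6.69% and 3.04% of all genes. *Mcpt8*, a basophil protease, read 42.5 in the *Pnpla1*+/+ pool and 449 in the *Pnpla1*-/- pool, a difference of 3.68 (12.8-fold), or 2.52 with normexp correction. *Fcer1a*, the IgE receptor chain of both cell types, differed by 1.41 (118 and 258), or 0.98, under 2-fold, with spike-in centring. *Tpsab1*, a mast cell tryptase gene, differed by -2.67 (218 and 28.1) and *Ms4a2* by -0.88 (56.5 and 25.3). Both *Pnpla1*-/- readings lay close to the background limit of 21.7, and with normexp correction the differences were -1.28 and -0.22. The other markers, named after their values were seen, were the protease genes *Cpa3* (-0.52), *Cma1* (-0.79), *Mcpt4* (-0.43) and *Tpsb2* (-0.52), together with *Kit* (-0.03) and *Hdc* (0.11), so that 7 of the 10 lay below 0. With spike-in centring 1 marker was at least 2-fold higher and 3 were lower, beside 3.73% and 9.68% of all genes. The sum, led by the mast cell protease gene *Cpa3*, was 70.5 and 54.9, and the median difference was -0.47.

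Of 8 eosinophil markers, 6 had a value. *Ear1* (31.1 and 598, a difference of 4.55) and *Ear2* (92.7 and 1612, a difference of 4.4), ribonuclease genes of a closely related family whose probes may cross-hybridise, were higher, by 3.13 and 3.56 with normexp correction. *Siglecf* differed by 0.77. *Epx*, which encodes the granule peroxidase that defines eosinophils, was at least 2.28-fold lower (60.3, and 19.5, not well above background), a log2 bound of -1.19 that became -0.26 with normexp correction, and neither array gave a signal well above background for *Prg2*, a granule protein gene. The summed level was 0.185 and 1.44, and without *Ear1* and *Ear2* it was 0.126 and 0.165, with genes not well above background included. The part of these marker differences in the values of the alarmin, cytokine and receptor genes was not tested.

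**Figure D5:**
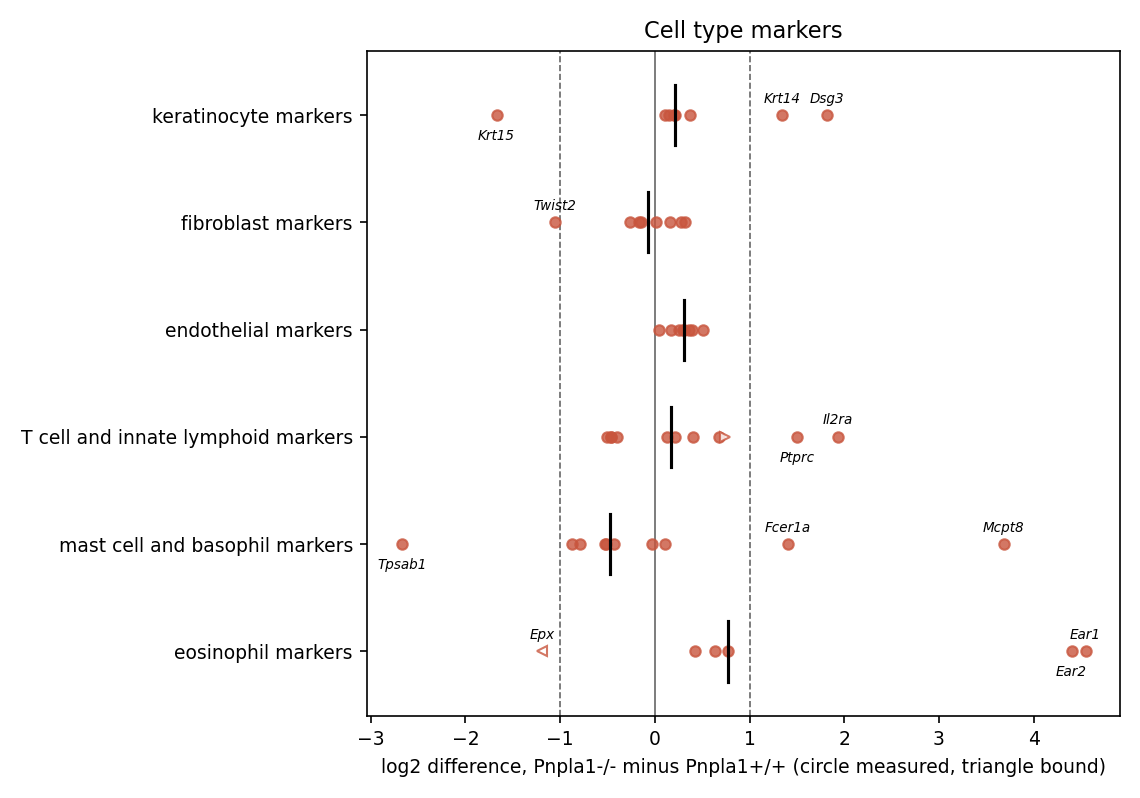
Scaled log2 differences (*Pnpla1*-/- minus *Pnpla1*+/+) of markers of 6 cell types, with circles for genes measured on both arrays, open triangles for bounds, bars for the median of the circles and dashed lines at 2-fold. *Mcpt8*, *Ear1* and *Ear2* lie farthest to the higher side, and *Tpsab1* farthest to the lower side.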

How the data were processed

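Total RNA of newborn skin was measured on 2 Agilent mouse arrays, 1 for each genotype, grouped by the genotype in the sample labels. Each array has 43020 spots other than controls for 39429 probes. The authors deposited, for each spot, a linear intensity already background-subtracted and detrended, made with Agilent Feature Extraction 11.5.1.1 per the submitters' processing notes, together with other columns (flags for spots that are not uniform, saturated or well above background). They also deposited a ratio of that intensity to 1 factor per array, which was used as an alternative.

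The processed intensity was divided by the 75th percentile of its array and log2-transformed with pandas 2.3.3 and numpy 2.4.6 under Python 3.11.15. Outlier-flagged spots (138 on the *Pnpla1*+/+ array and 82 on the *Pnpla1*-/- array) were left out, spots of a probe were averaged, and a gene was represented by its brightest probe. A difference required a signal well above background on both arrays (20708 genes). Of 1716 genes with such a signal on 1 array, 1701 gave a bound, whose dim side was set to the array's lowest signal passing the background test, or to the probe's own value if that was higher, and 7769 genes had a signal on neither array. Of the spots, 71.7% and 73.3% were well above background, and 0 were saturated. The technical SD of a difference between repeated spots was 0.08 on the log2 scale (305 probes with at least 8 spots), and 0.20 where the dimmer signal was under 100. The software error printed beside a difference was propagated from the deposited error of each spot.

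Probe positions follow the scanner files (mm9), and promoters those of RefSeq on GRCm38.p6. The script was tested on simulated data. Quantile, cyclic loess and normexp settings (offset 50) used limma 3.58.1 in R 4.3.3. The genes and lists were chosen with earlier results of these data known, and 1 gene of the IL-4 and IL-13 response list is not reported here. The text names every gene of interest and partner receptor chain, the sex-linked genes, and the up to 4 genes of each other list with the largest absolute difference or bound, with exceptions stated where they occur.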

Additional observations from a re-analysis of the deposited data

How the results depend on the processing

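With 1 array for each genotype, no replicate could be left out and the slide, which both arrays shared, could not be used as a block. No paired analysis was possible because each genotype has 1 array. The 8 genes measured on both arrays, and the count of 0 at least 2-fold lower, were the same under all alternatives with the background filter. The count of 5 at least 2-fold higher became 3 with spike-in centring, 3 with a 3-fold threshold, 4 without scaling, 4 with normexp correction and 6 at 1.5-fold, and was 5 under the others. The median difference of 1.28 was 1.0 without scaling, 1.18 with quantile normalization, 0.86 with spike-in centring, 0.95 with normexp correction and 1.03 with no filter on dim probes. Without that filter *Il25* gave -0.42 and *Il5* 0.49, from signals not well above background.

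Across all genes, 1499 were at least 2-fold higher and 682 lower. These counts were 998 and 1424 without scaling, 829 and 2150 with spike-in centring, 959 and 321 with normexp correction, 3047 and 1107 with no filter on dim probes, 3096 and 2094 at 1.5-fold, and 683 and 229 at 3-fold. Higher genes made up 68.7% of those beyond 2-fold, beside 41.2% without scaling and 27.8% with spike-in centring. Those scalings moved the median of all genes to -0.29 and -0.43, a shift common to every gene. With spike-in centring *Socs3*, *Klk7*, *Ccl11*, *Krt14* and *Fcer1a* also dropped below 2-fold, at 0.94, 0.63, 0.72, 0.92 and 0.98. The medians of the signalling, response and release lists fell to -0.03, -0.10 and -0.28 with spike-in centring. The 8 spike-in probes themselves differed by 0.30 to 0.49. The *Pnpla1*+/+ signals of *Tslp* and *Il13*, 50.6 and 40.4, were under 100, where the technical SD of a difference was 0.20. The causes of these changes were not tested.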
